A study of Mus musculus with 3 samples.

Results

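The collagen genes are the 44 genes, of 32285 in the 3 count matrices, whose symbol has the form Col, number, a, number. They were chosen by symbol alone and were grouped by the kind of protein they encode: 11 fibrillar chains, 6 chains of the network collagen type IV, 2 multiplexins, 6 chains of beaded filaments, 3 short chain network chains, 1 anchoring fibril chain, 9 fibril-associated chains (FACIT), 4 transmembrane chains and 2 others. Every one of the 44 was counted at least once. The 26 that reached a mean of 10 CPM over the 3 libraries in at least 1 lineage are described by name. CPM is the UMI count of a gene scaled to the total UMIs of its cell class and library. The other 18 genes ranged from 4 UMIs for Col28a1 to 614 UMIs for Col4a4 over all kept cells.

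Single cells from whole mouse kidneys at E15.5 (embryonic day) were sequenced in 3 libraries, 1 for each group. The Enl-WT library came from Enl +/+ Wt1 GFPCre/+ embryos and had no treatment. The Enl-T1 library came from Enl flox-T1/+ Wt1 GFPCre/+ embryos, also untreated, which carry after Cre recombination an insertion of 3 amino acids, known from Wilms tumors, in the chromatin reader ENL (gene Mllt1). Counts of 3′ ends do not show such an insertion, so the levels of Mllt1 are no check of the genotype. The Enl-T1 TDI-11055 library came from embryos of the Enl-T1 genotype whose mothers were given TDI-11055, an inhibitor of the acyl-lysine binding pocket of ENL, orally at 100 mg/kg once a day from E10.5 to E14.5. All 3 groups were heterozygous for Wt1, because the GFPCre knock-in inactivates 1 Wt1 allele, and Cre was driven by the Wt1 promoter, which is active in the progenitors of the nephron and of the stroma. Each library pooled kidneys of several embryos and no table assigns cells to embryos, so each group was 1 sample, no test between groups could be made, and the 95% intervals below take in the error of counting and nothing else.

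Collagens are trimeric proteins with a triple helix that cells secrete as procollagen chains. Fibrillar collagens I, III and V build the fibrils of the interstitial matrix, type IV collagen forms the sheet-like network of basement membranes, and multiplexins such as the chains of Col15a1 and Col18a1 link basement membranes to the matrix beneath. In the developing kidney the stroma lays down most of the interstitial matrix, while tubules, ureteric buds, podocytes and capillaries each rest on a basement membrane whose type IV chains mature from Col4a1 and Col4a2 to Col4a3, Col4a4 and Col4a5 in the glomerulus.

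After barcodes with 1000 to 6000 genes and at most 10% mitochondrial UMIs were kept, 5233, 4144 and 2754 cells remained in Enl-WT, Enl-T1 and TDI-11055 (short for Enl-T1 TDI-11055), with medians of 5090, 9391 and 16932 UMIs. Of 7186, 6575 and 6453 barcodes, these were 72.8%, 63% and 42.7%, so the filter took out the largest share in TDI-11055. Its kept cells had a median of 4329 genes, against 2358 in Enl-WT and 3037 in Enl-T1. After the filter the TDI-11055 library was the deepest per cell and the smallest, and 5 to 8 kept barcodes were shared by each pair of libraries. By Xist and Y-linked genes 2431, 683 and 976 cells were male and 1386, 3036 and 968 female, so Enl-T1 held mostly female cells. Clusters were named from marker genes, with all collagen genes left out of the clustering. Stroma held 868, 1396 and 270 cells, nephron 2219, 1300 and 1341, ureteric epithelium 1743, 1173 and 1022, endothelium 394, 257 and 116, and immune cells 9, 18 and 5. Of the markers of a lineage, all were detected in that lineage except 1 of 20 nephron markers in Enl-T1. Names of classes within a lineage are given as podocyte-like and so on, since they rest on markers and not on a deposited annotation.

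Type IV collagen genes lie head to head in pairs, and these starts are shown because the pairs are compared chain by chain below. Col4a1 (ENSMUSG00000031502, chromosome 8, 11198423 to 11312826, minus strand, GRCm38) and Col4a2 (ENSMUSG00000031503, chromosome 8, 11312805 to 11449287, plus strand) overlap by 22 bases at their starts. The starts of Col4a4 and Col4a3 on chromosome 1 are 72 bases apart, and those of Col4a6 and Col4a5 are 1309 bases apart. The sequences below run 5′ to 3′ on the strand of each gene, from 250 bases before to 50 bases after the RefSeq start on GRCm38.p6, at chr8:11312777-11313076 for Col4a1 and chr8:11312555-11312854 for Col4a2, with the 78 bases that both windows hold in capitals.
Col4a1: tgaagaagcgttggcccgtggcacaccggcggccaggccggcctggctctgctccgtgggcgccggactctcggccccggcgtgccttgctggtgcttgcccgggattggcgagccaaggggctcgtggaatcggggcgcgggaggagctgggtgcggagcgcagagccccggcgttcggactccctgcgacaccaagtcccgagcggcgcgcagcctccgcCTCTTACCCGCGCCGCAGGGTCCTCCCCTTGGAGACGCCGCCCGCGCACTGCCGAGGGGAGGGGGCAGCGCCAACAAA
Col4a2: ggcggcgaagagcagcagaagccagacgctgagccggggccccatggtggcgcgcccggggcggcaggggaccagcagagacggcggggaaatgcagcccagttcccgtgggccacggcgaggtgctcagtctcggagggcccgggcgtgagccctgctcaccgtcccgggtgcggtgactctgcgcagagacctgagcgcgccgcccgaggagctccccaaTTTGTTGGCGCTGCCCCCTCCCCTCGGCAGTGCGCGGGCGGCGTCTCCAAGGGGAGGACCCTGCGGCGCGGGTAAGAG
The third sequence is that of Col1a2, at chr6:4505368-4505667 on the plus strand, because Col1a2 was the fibrillar chain found apart from its partner in podocyte-like cells. Its 2 matches to the string CCAAT, 1 of them on the opposite strand as ATTGG, are in capitals. The ATTGG match begins at the RefSeq start itself and does not lie before it.
Col1a2: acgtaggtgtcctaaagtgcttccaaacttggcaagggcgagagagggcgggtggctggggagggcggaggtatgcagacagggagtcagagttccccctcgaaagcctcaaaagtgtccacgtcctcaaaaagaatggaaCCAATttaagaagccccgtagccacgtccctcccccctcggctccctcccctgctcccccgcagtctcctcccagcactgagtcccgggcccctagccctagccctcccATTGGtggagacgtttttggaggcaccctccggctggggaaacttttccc
RefSeq promoter windows of this length were at hand for 35 of the 44 genes, and Col1a1, Col2a1, Col4a3, Col5a2, Col9a3, Col12a1, Col14a1, Col22a1 and Col26a1 had none in the table. On either strand, CCAAT was in 34.2% of the 38 collagen windows and in 37.4% of all 32851 windows, GGGCGG in 60.5% against 35.7%, and TATAA in 18.4% against 24.9%. The 3 motifs do not contain one another. A match is a string of letters and no evidence that a factor binds there.

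Collagen genes were divided between lineages by type. Of the 44, 28 had their highest mean level in stroma, 8 in nephron, 5 in endothelium and 3 in ureteric epithelium, and of the 26 named genes these numbers were 17, 3, 4 and 2. The lineage with the highest level was the same in all 3 libraries for 22 of the 26 named genes, the exceptions being Col9a1, Col13a1, Col18a1 and Col26a1. Stroma held 16.6%, 33.7% and 9.8% of cells in Enl-WT, Enl-T1 and TDI-11055 but 81.3%, 96% and 94.1% of the UMIs of Col1a1, Col1a2 and Col3a1 together. All collagen genes together made up 0.584% of stroma UMIs in Enl-WT (0.577 to 0.592), 0.557% in Enl-T1 (0.553 to 0.561) and 0.293% in TDI-11055 (0.287 to 0.298). The share was close in the untreated libraries and lowest in the treated library.

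The fibrillar genes Col1a1 and Col1a2 encode the 2 chains of type I collagen, and Col3a1 encodes type III collagen. Col1a1 (ENSMUSG00000001506, chromosome 11, 94936224 to 94953042) stood at 802 CPM in stroma, as a mean of the 3 libraries, 64.8 times its level in the next lineage. Col3a1 (ENSMUSG00000026043, chromosome 1, 45311538 to 45349706) was 51.4 times higher in stroma than in endothelium. Col1a2 (ENSMUSG00000029661, chromosome 6, 4504814 to 4541544) was only 17 times higher in stroma than in nephron, because of the podocyte-like cells described below. Col2a1, the chain of cartilage collagen, went the other way: it stood at 42.3 CPM in nephron and 2.53 CPM in stroma. Col5a1, which helps to start fibrils, was at 116 CPM in stroma and 7.99 CPM in nephron, while Col5a2 was 2.62 times higher in stroma than in endothelium, where it reached 50.3 CPM. Col11a1 and Col27a1, minor fibrillar chains, were also highest in stroma, with ureteric epithelium next (18.6 and 24.1 CPM). Among the fibrillar genes, then, 7 of the 8 named were stromal and 1 was nephronic.

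The beaded filament genes Col6a1, Col6a2 and Col6a3, whose products form type VI microfibrils around cells, were at 93.6 to 128 CPM in stroma and at no more than 2.68 CPM in any other lineage. The FACIT genes Col12a1, Col14a1 and Col16a1, whose products decorate fibrils, were likewise stromal, 10.6, 6.67 and 26.9 times above the next lineage. Col9a3, a chain of type IX collagen, was highest in ureteric epithelium at 19.3 CPM, whereas Col9a1 and Col9a2 were highest in stroma at 10.9 and 15 CPM. Thus the 3 chains of type IX collagen were not highest in the same lineage. Among the transmembrane collagens, Col23a1 and Col25a1 were stromal (87.3 and 30.7 CPM) and Col13a1 was highest in nephron (18 CPM). Col26a1 stood at 57.3 CPM in nephron and 54.5 CPM in stroma and 4.93 and 5.25 CPM in ureteric epithelium and endothelium.

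The basement membrane genes were spread over all lineages. Col4a1 was highest in endothelium at 837 CPM, with 520 CPM in stroma, 204 CPM in ureteric epithelium and 202 CPM in nephron. Col4a2 followed the same order in endothelium and stroma, with 461 and 238 CPM. Col4a5 was highest in ureteric epithelium, where it reached 62.8, 51.5 and 25 CPM in Enl-WT, Enl-T1 and TDI-11055. Col15a1 was at 174 CPM in endothelium and 57.4 CPM in stroma and 1.17 and 3.04 CPM in nephron and ureteric epithelium. Col18a1, whose fragment is endostatin, was at 339 CPM in endothelium and 317 CPM in ureteric epithelium, and the order of the 2 differed between libraries.

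Comparisons between libraries use the ratio of CPM in a class divided by the median ratio of all genes tested there, that is, genes with a mean of at least 5 CPM over the 3 libraries. A gene is called higher or lower when this relative ratio is at least 1.5 or at most 1/1.5. The median gene itself shifted by -0.30 (log2) in stroma, -0.40 in nephron, -0.30 in ureteric epithelium and -0.31 in endothelium between Enl-WT and Enl-T1, and by 0.02, 0.00, 0.02 and -0.07 between Enl-T1 and TDI-11055. Ratios of all genes also went down with exonic length (Spearman's rho across genes -0.43 and -0.33 in stroma for the 2 comparisons, with no p because genes are not replicates), and the tested collagen genes had a median exonic length of 7021 bases against 4734 for all genes tested. The part of length in the results was not tested beyond the length-centred values given here and in the closing section. Both comparisons share the Enl-T1 library, so a value that is high or low by chance in that library moves them in opposite directions.

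In stroma, the question of the first comparison is which collagen genes differed with the ENL mutation. Between Enl-WT and Enl-T1, 5 of 27 tested collagen genes were higher, against 14.3% of all genes, and 7 were lower, against 12.3% of all genes. Those called higher were Col1a2, Col6a2, Col9a2, Col15a1 and Col23a1, and those called lower were Col4a4, Col4a5, Col5a3, Col9a1, Col12a1, Col18a1 and Col26a1. The median relative log2 ratio of the 27 was 0.17, against 0 for all genes by construction.

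Col1a2 was at 984 CPM in Enl-WT stroma (954 to 1015), 1256 CPM in Enl-T1 (1235 to 1277) and 624 CPM in TDI-11055 (598 to 651). Col1a1 was at 954 CPM (924 to 985), 933 CPM (916 to 952) and 518 CPM (495 to 543). Col3a1 was at 1120 CPM (1088 to 1153), 1229 CPM (1208 to 1249) and 656 CPM (630 to 684). Each of the 3 genes was thus lowest in the treated library, and its counting intervals there did not overlap those of the untreated libraries. Relative to the median gene, the Enl-T1 to Enl-WT ratio was 1.57 for Col1a2 (1.52 to 1.63), 1.21 for Col1a1 (1.16 to 1.25) and 1.35 for Col3a1 (1.31 to 1.4). The summed fibrillar genes had a relative log2 ratio of 0.41 (0.38 to 0.44), which became -0.12 (-0.14 to -0.09) in an alternative chosen after the data were seen, in which the 9 of 11 stroma clusters with at least 10 cells in every library had the same weight. That alternative also left out cluster 9, a part of the renin, mesangial and pericyte-like class led by Ren1 (69, 22 and 7 cells), and the mixed cluster 10 (18, 6 and 0 cells). Under it 0 of the tested genes were called higher in Enl-T1 stroma, and whether the weights or the clusters left out made the change was not tested.

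Col15a1 and Col23a1 had the highest relative ratios, 2.41 (2.07 to 2.81) and 2.15 (1.91 to 2.43). Col15a1 was at 50 CPM in Enl-WT stroma (43.4 to 57.4), 97.7 CPM in Enl-T1 (92 to 104) and 24.4 CPM in TDI-11055 (19.5 to 30.2). Col23a1, a transmembrane collagen, was at 83, 145 and 33.9 CPM. Both were thus highest in Enl-T1 and lowest after TDI-11055. Medullary stroma-like cells, whose cluster had Col15a1 among its leading genes, were 9.91%, 14.2% and 4.44% of stroma in Enl-WT, Enl-T1 and TDI-11055. Ureteric stroma-like cells were 4.95%, 16.7% and 4.44%. Clusters of all cells with Col23a1 among their leading genes also had Alx1 or Tbx18 there. The part of this mix was not tested, and with clusters at equal weight neither gene was called higher in Enl-T1. Col12a1, a FACIT gene of dense connective tissue, was the clearest of the genes called lower: 134 CPM in Enl-WT (123 to 146), 47.3 CPM in Enl-T1 (43.3 to 51.5) and 27.3 CPM in TDI-11055 (22.1 to 33.4). Its Enl-T1 to Enl-WT ratio relative to the median gene was 0.434 (0.384 to 0.49), and it was below 1/1.5 in each named stroma class: 0.38 in cortical, 0.246 in medullary, 0.273 in renin, mesangial and pericyte-like and 0.21 in ureteric stroma-like cells.

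**Figure D1:**
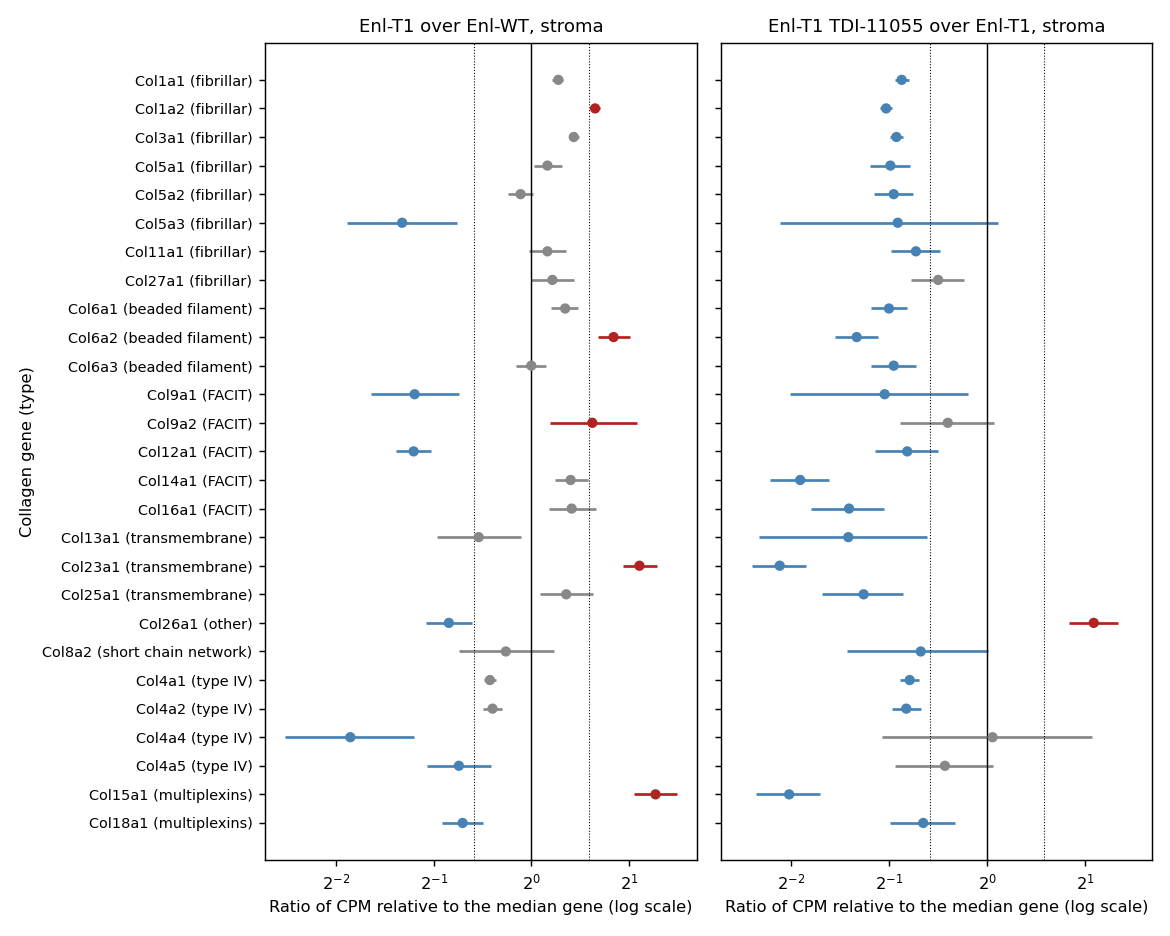
Relative ratios of CPM in stroma for the 27 tested collagen genes (y axis, with their type), Enl-T1 over Enl-WT on the left and TDI-11055 over Enl-T1 on the right, on a log axis with 95% counting intervals. Dotted lines mark 1.5-fold, red is higher and blue lower; on the right 22 genes lie to the left of the dotted line and Col26a1 alone (2.13) lies to the right of it.

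The second comparison asks which collagen genes differed between treated and untreated Enl-T1 kidneys. In stroma, 22 of the 27 tested collagen genes were lower with TDI-11055, against 13.3% of all genes, and 1 was higher, against 10.1% of all genes. The median relative log2 ratio of the 27 was -0.93. Lower genes were of every type tested except the single gene in the group of others: 7 of 8 fibrillar, 3 of 3 type VI, 4 of 5 FACIT, 3 of 3 transmembrane, 2 of 2 multiplexins, 2 of 4 type IV and the short chain gene Col8a2. The counting intervals of Col5a3 (0.23 to 1.08) and Col8a2 (0.371 to 1.01) reached past 1. Col4a4, Col4a5, Col9a2 and Col27a1 were not called, with ratios of 1.04 (0.475 to 2.11), 0.742 (0.519 to 1.04), 0.757 (0.538 to 1.05) and 0.707 (0.585 to 0.85). The count of lower genes was 10 at a 2-fold cut, for which no share of all genes is given.

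The relative ratio of TDI-11055 to Enl-T1 was 0.546 for Col1a1 (0.519 to 0.574), 0.489 for Col1a2 (0.467 to 0.511) and 0.526 for Col3a1 (0.503 to 0.55), so the main chains of types I and III were lower to a like degree. Lower ratios were found for Col23a1, 0.23 (0.189 to 0.277), Col15a1, 0.246 (0.195 to 0.307), and Col14a1, 0.266 (0.214 to 0.327), the last of which went from 103 CPM in Enl-T1 to 27.9 CPM. The fibrillar sum had a relative log2 ratio of -0.94 (-0.97 to -0.90), -0.72 after centring on genes of like length and -0.64 with the 9 stroma clusters at equal weight. Stroma marker genes were present in all 3 libraries, 16 of 16, with a summed level of 4252, 3499 and 3051 CPM. The treated stroma held 270 cells, the fewest of the 3.

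Col26a1, which encodes an EMILIN-related collagen, went against the others: 67.2 CPM in Enl-WT stroma (59.5 to 75.7), 30.4 CPM in Enl-T1 (27.2 to 33.8) and 65.8 CPM in TDI-11055 (57.5 to 74.9). The Enl-T1 value was below both others, whose intervals overlap. Its relative ratio was 0.557 (0.473 to 0.656) for Enl-T1 over Enl-WT and 2.13 (1.79 to 2.53) for TDI-11055 over Enl-T1. In cortical stroma-like cells the levels were 110, 33.6 and 96.1 CPM. That class joined cluster 1 (141, 112 and 54 cells) and cluster 8 (42, 123 and 21 cells), so cluster 8 was the larger only in Enl-T1, and the part of this mix in the result was not tested. In nephron progenitor-like cells Col26a1 was at 84.1, 62.1 and 97.9 CPM.

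Within stroma, 4 classes could be named: cortical stroma-like (183, 235 and 75 cells), medullary stroma-like (86, 198 and 12), ureteric stroma-like (43, 233 and 12) and renin, mesangial and pericyte-like (181, 96 and 24). Cells of unnamed clusters made up the rest (375, 634 and 147). The classes differed in their collagens. Col4a1 was highest in renin, mesangial and pericyte-like cells, at 1925, 1379 and 1077 CPM in Enl-WT, Enl-T1 and TDI-11055, and in cortical stroma-like cells it was at 146, 183 and 44.8 CPM. Among the named classes of Enl-WT, Col6a1 was instead lowest in renin, mesangial and pericyte-like cells, at 12.8 CPM. It was highest in ureteric stroma-like cells, at 653 CPM.

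The fibrillar genes of Enl-T1 were higher than in Enl-WT in one class and lower in another. In renin, mesangial and pericyte-like cells, 10 of 24 tested collagen genes were higher in Enl-T1, against 20.2% of all genes, among them Col1a1 (170 to 510 CPM, relative ratio 3.64, 3.02 to 4.41), Col1a2 (381 to 1001 CPM, 3.18) and Col3a1 (427 to 1102 CPM, 3.13). Col6a1 went from 12 UMIs to 64 UMIs there (7.7, 4.12 to 15.7). That class joined cluster 7 (112, 74 and 17 cells in Enl-WT, Enl-T1 and TDI-11055) and cluster 9, led by Ren1 (69, 22 and 7 cells). The part of this mix in the result was not tested. In ureteric stroma-like cells, 22 of 30 were lower in Enl-T1, against 24.2% of all genes. Col1a1 was at 4132 CPM in the 43 Enl-WT cells and 1056 CPM in the 233 Enl-T1 cells there (0.329, 0.301 to 0.36), and Col9a1, a cartilage FACIT gene, was at 326 and 15.1 CPM (0.0593, 0.0356 to 0.0966). In cortical stroma-like cells the main fibrillar genes were not called (0.898 for Col1a1 and 1.35 for Col1a2). The difference between the classes was not tested, since each class holds 1 sample a group.

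With TDI-11055, 22 of 28 tested collagen genes were lower in cortical stroma-like cells, against 17.7% of all genes, and 15 of 24 in renin, mesangial and pericyte-like cells, against 21.2%. In cortical stroma-like cells Col1a1 went from 1137 to 556 CPM (0.493, 0.447 to 0.544) and Col14a1 from 79 UMIs to 1 UMI (0.0253, 0.000633 to 0.145). In renin, mesangial and pericyte-like cells Col1a1 went from 510 to 317 CPM (0.616, 0.501 to 0.753). The medullary and ureteric stroma-like classes held 12 treated cells each, and Col1a1 was at 523 CPM in the former and 1624 CPM (1394 to 1881) in the latter, above the 1056 CPM of Enl-T1 but not called (1.33, 1.14 to 1.55).

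**Figure D2:**
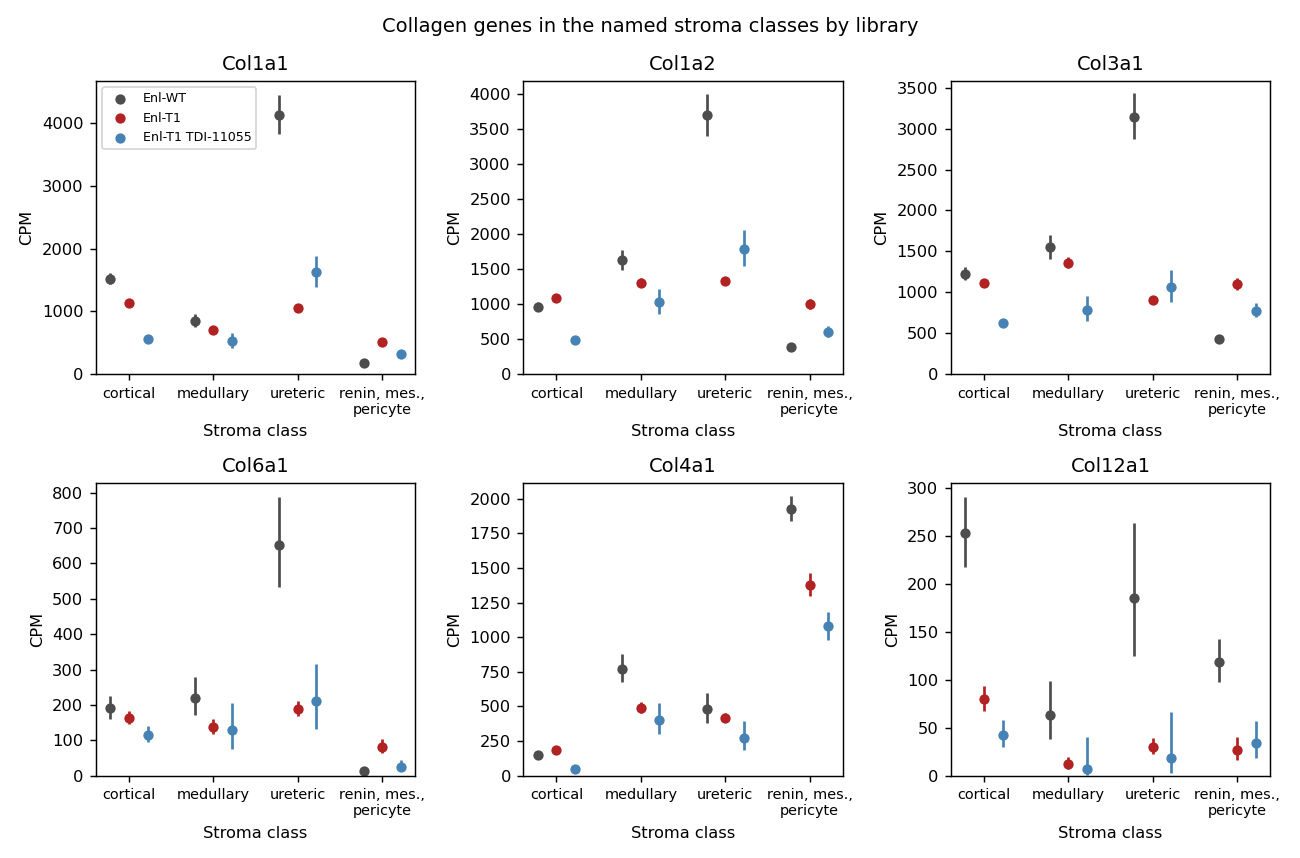
CPM (y axis, from 0) of 6 collagen genes in the 4 named stroma classes (x axis) in each library, with 95% counting intervals. Col1a1, Col1a2 and Col3a1 are highest in Enl-WT ureteric stroma-like cells (4132 CPM for Col1a1) and lowest in Enl-WT renin, mesangial and pericyte-like cells (170 CPM), Col4a1 is highest in the latter, and Col12a1 is highest in Enl-WT in all 4 classes.

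In the nephron, basement membrane genes were lower in Enl-T1. Col4a1 was at 402 CPM in Enl-WT (391 to 412), 109 CPM in Enl-T1 (104 to 115) and 95.1 CPM in TDI-11055 (90.8 to 99.6), and Col18a1 at 232, 72.5 and 55.2 CPM. The treated library thus lay near untreated Enl-T1 for both genes and far below Enl-WT. The nephron markers summed to 2574, 957 and 1069 CPM, in the same order as Col4a1 between Enl-WT and the others, and their part in the result was not tested. Of 16 tested collagen genes 11 were past the fold, against 31.9% of all genes. Lower were Col1a2, Col4a1 (0.361, 0.341 to 0.382), Col4a2 (0.418), Col4a4 (0.218), Col4a5 (0.614), Col18a1 (0.414) and Col27a1 (0.514). Higher were Col1a1 (1.88), Col2a1 (3.31, 2.94 to 3.74), Col11a1 (1.83) and Col13a1 (2.89).

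The make-up of the nephron lineage moved with these values: progenitor-like cells were 32.5%, 46.8% and 45.2% of it, podocyte-like cells 9.91%, 2.85% and 2.31%, proximal tubule-like cells 12.3%, 2.54% and 5.52%, and cells of unnamed clusters 14.4%, 38.1% and 18.2%. Within classes, Col4a1 was below its Enl-WT level in Enl-T1 progenitor-like cells (178 to 69 CPM, relative ratio 0.489, 0.437 to 0.547), in proximal tubule-like cells (866 to 324 CPM, 0.46) and in distal tubule and loop of Henle-like cells (392 to 208 CPM, 0.633). It was not called in committed cells, where it was at 513 and 287 CPM, nor in podocyte-like cells, at 343 and 367 CPM. Col2a1 was at 48.8, 66.5 and 37.1 CPM in progenitor-like cells, so that its ratio there was 1.72 (1.46 to 2.03), less than in the whole lineage. Of the 286 nephron Col1a1 UMIs of Enl-T1, 164 came from nephron cluster 8, an unnamed cluster of 208 Enl-T1 cells with genes of both nephron and stroma, and with clusters at equal weight the relative log2 ratio of Col1a1 was -0.08.

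With TDI-11055, 8 of 16 nephron collagen genes were past the fold, all lower, against 14.8% of all genes past it either way: Col1a1, Col2a1, Col3a1, Col4a4, Col4a5, Col5a1, Col11a1 and Col23a1. Col2a1 went from 68.1 to 31.6 CPM (0.463, 0.417 to 0.513) and Col4a5 from 21.7 to 11.5 CPM (0.53, 0.444 to 0.632). Col4a1 (0.866, 0.809 to 0.927), Col4a2 (0.853) and Col18a1 (0.759) were not called, and Col26a1 was at 1.35 (1.23 to 1.48).

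Podocytes cover the glomerular capillaries and make the type IV chains of the glomerular basement membrane. In the podocyte-like class of Enl-WT (220 cells), Col1a2 had 1785 UMIs, that is 1081 CPM (1031 to 1132), a level like that of the whole stroma, and these were 1785 of the 1970 Col1a2 UMIs of the Enl-WT nephron. Col1a1 was at 27.8 CPM and Col3a1 at 9.69 CPM in the same cells. Col1a2 was therefore 97.5% (96.7 to 98.2) of the UMIs of Col1a1 and Col1a2 together, against 50.8% in stroma (49.7 to 51.9) and 38.7% in cortical stroma-like cells. In the 31 TDI-11055 cells Col1a2 was at 376 CPM and 97.9% of the pair (94.6 to 99.4). The ratio of the 2 chains in podocyte-like cells was thus not that of stroma. A high share was not seen in podocyte-like cells alone. In Enl-WT distal tubule and loop of Henle-like cells it was 84.6% (65.1 to 95.6), from 26 UMIs of the pair. It was 59.7% (46.4 to 71.9) in Enl-WT progenitor-like and 48.4% (30.2 to 66.9) in proximal tubule-like cells.

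The Enl-T1 cells of this class went against its name: 37 cells had 0 UMIs of Podxl, and the summed level of 9 podocyte markers was 1009 CPM against 41266 CPM in Enl-WT and 10589 CPM in TDI-11055. In those 37 cells Col1a2 had 1 UMI (3.71 CPM), so the Enl-T1 to Enl-WT ratio relative to the median gene was 0.00392 (9.92e-05 to 0.0219), a comparison of cells with and without the podocyte markers. After thinning to 2000 UMIs a cell, a Col1a2 UMI was found in 69% of Enl-WT cells (62.3 to 75.2), in 0 of 37 Enl-T1 cells, which allows up to 9.49%, and in 32.3% of TDI-11055 cells (16.7 to 51.4), while in immune cells, which should lack the gene, it was found in 0 of 9, 0 of 18 and 0 of 5, which allows up to 33.6%, 18.5% and 52.2%. In ureteric epithelium the shares were 0.991%, 1.97% and 0.198%. Unthinned, 78.6%, 2.7% and 35.5% of podocyte-like cells had one, the median cell holding 5664, 7163 and 14507 UMIs, against 3584, 7572 and 6271 UMIs in immune cells. The cells with Col1a2 were also those with podocyte markers: in Enl-WT, Podxl was at 3277 CPM in the 173 cells with a Col1a2 UMI and 537 CPM in the 47 without, and in TDI-11055 at 869 and 87.4 CPM in 11 and 20 cells. The 5 cells with the most Col1a2 held 10.2% of its UMIs in Enl-WT and 71.6% in TDI-11055.

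The glomerular chains Col4a3 and Col4a4 were also found in the Enl-WT cells with Col1a2, at 65.5 and 130 CPM against 0 and 5.84 CPM in the cells without it. In the 11 TDI-11055 cells with Col1a2 they were at 0 and 5.61 CPM. Over the whole class, Col4a3 had 97 UMIs in Enl-WT podocyte-like cells (58.7 CPM) and 0 UMIs in both other libraries, where a count of 0 allows up to 11.1 CPM in Enl-T1 and 6.16 CPM in TDI-11055. Col4a4 was at 117 CPM (101 to 135), 14.8 CPM (4.04 to 38) and 2.05 CPM (0.052 to 11.4), and Col4a5 at 129, 59.4 and 39 CPM. Enl-WT was highest for all 3 genes. Col18a1 was at 417, 137 and 96.5 CPM in these cells. The summed podocyte markers were also highest in Enl-WT, and between Enl-WT and Enl-T1 fewer podocytes and less of these chains per podocyte cannot be told apart. Between Enl-T1 and TDI-11055 the marker sum was higher in the treated cells while the levels of Col4a4, Col4a5 and Col18a1 were not.

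Ureteric epithelium, which forms the collecting ducts, held Col18a1 at 425, 340 and 187 CPM and Col4a1 at 299, 149 and 164 CPM in Enl-WT, Enl-T1 and TDI-11055. Between Enl-WT and Enl-T1, 5 of 13 tested genes were past the fold, against 22.8% of all genes: Col4a1 (0.616, 0.584 to 0.649), Col4a2 (0.518), Col2a1 (0.421) and Col11a1 (0.381) were lower, and Col1a2 (1.55, 1.24 to 1.94) was higher. Of the 224 Enl-T1 Col1a2 UMIs, 160 came from cluster 10, an unnamed cluster with stroma genes, as did 88 of 129 in Enl-WT, and the relative log2 ratio of Col1a2 turned from 0.63 to -0.39 with the strict cell filter. Tip-like cells were 46.2%, 30.3% and 45.9% of this lineage in Enl-WT, Enl-T1 and TDI-11055, and urothelium-like cells 8.15%, 22.1% and 5.48%. In Enl-T1 over Enl-WT, Col4a1 and Col4a2 were not called in tip-like cells (0.807 and 0.673). Nor were they called in trunk and collecting duct-like cells (0.697 and 0.687). Both were lower in urothelium-like cells (0.255 and 0.319). The part of the make-up of the lineage in these results was not tested. Between Enl-T1 and TDI-11055, 8 of 13 were past the fold, against 17.6% of all genes. Col4a5 (51.5 to 25 CPM, 0.48) and Col18a1 (0.544, 0.521 to 0.568) were lower, as was Col5a2 (0.408, whose log2 ratio was 0.32 in male cells alone). In tip-like cells Col4a5 and Col18a1 were lower too (0.512 and 0.665), and in trunk and collecting duct-like cells Col4a5 was not called (0.898). As a mean of the 3 libraries, Col18a1 was at 144 CPM in tip-like and 574 CPM in urothelium-like cells. Col2a1 (2.28, 1.59 to 3.33) and Col11a1 (1.99, 1.63 to 2.44) were higher. Col2a1 and Col11a1 thus lay lower in Enl-T1 and higher after TDI-11055 in ureteric epithelium, and the other way round in nephron. In tip-like cells their ratios were 0.467 and 0.533 for Enl-T1 over Enl-WT. With TDI-11055 they were 1.9 and 1.45 there, the latter not called. In Enl-WT, Col2a1 was at 13 CPM in tip-like and 1.23 CPM in urothelium-like cells, and Col11a1 at 38.4 and 2.47 CPM. The part of the make-up of the lineage was not tested.

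Col1a1, Col1a2 and Col3a1 were lower in treated ureteric epithelium too (0.125, 0.0756 and 0.0591), but at levels of 11.7 CPM for Col1a1 and 15 CPM for Col3a1 in Enl-T1, far below stroma. Of the 181 Enl-T1 Col1a1 UMIs in this lineage, 113 came from the same cluster 10, which held 40 Enl-T1 cells. Stroma markers in the lineage summed to 81.6 CPM in Enl-WT, 72.5 CPM in Enl-T1 and less than 16 CPM in TDI-11055, with all 16 detected in each library, and their part in the result was not tested. Without that cluster and the other 2 clusters of mixed genes, the relative log2 ratios were -1.64, -1.97 and -2.70. In urothelium-like cells Col4a1 was at 90.1 CPM in Enl-WT, 18.4 CPM in Enl-T1 and 56.5 CPM in TDI-11055, and its ratios were 0.255 (0.181 to 0.36) and 2.85 (1.97 to 4.12).

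In endothelium, which lines the vessels, Col4a1 and Col4a2 were called in neither comparison. Col4a1 was at 923 CPM in Enl-WT (888 to 958), 861 CPM in Enl-T1 (829 to 894) and 727 CPM in TDI-11055 (688 to 768), and neither ratio relative to the median gene, 1.16 and 0.885, was called. Col4a1 and Col4a2 summed to relative log2 ratios of 0.21 (0.14 to 0.27) and -0.18 (-0.25 to -0.10), whose signs turned under other scalings (-0.10 when not divided by the median gene, 0.03 when centred on length). Col15a1 was at 184, 156 and 181 CPM and was not called either. Col18a1 was lower in Enl-T1, at 530, 241 and 244 CPM (0.565, 0.518 to 0.617), and the treated library was level with Enl-T1.

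Between Enl-WT and Enl-T1, 9 of 15 tested endothelial collagen genes were past the fold, against 24.9% of all genes, and between Enl-T1 and TDI-11055, 8 of 15, against 27.8%. Col1a1 had 36, 73 and 0 UMIs, Col1a2 36, 118 and 1, and Col3a1 49, 131 and 1, which gave relative ratios of 2.27, 3.67 and 3 for Enl-T1 over Enl-WT. Col1a2 was 50% of the pair in Enl-WT and 61.8% in Enl-T1, near the 50.8% and 57.4% of stroma. The other genes called higher in Enl-T1 were Col23a1 and Col26a1, and those called lower were Col5a2, Col12a1, Col18a1 and Col25a1, the intervals of Col12a1, Col25a1 and Col26a1 including 1. Of 16 stroma markers 14, 15 and 12 were detected in endothelium, with sums of 713, 734 and 422 CPM, and among male cells alone the relative log2 ratios of Col1a1 and Col1a2 were -0.11 and -1.11. The part of stroma RNA in these counts was not tested.

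**Figure D3:**
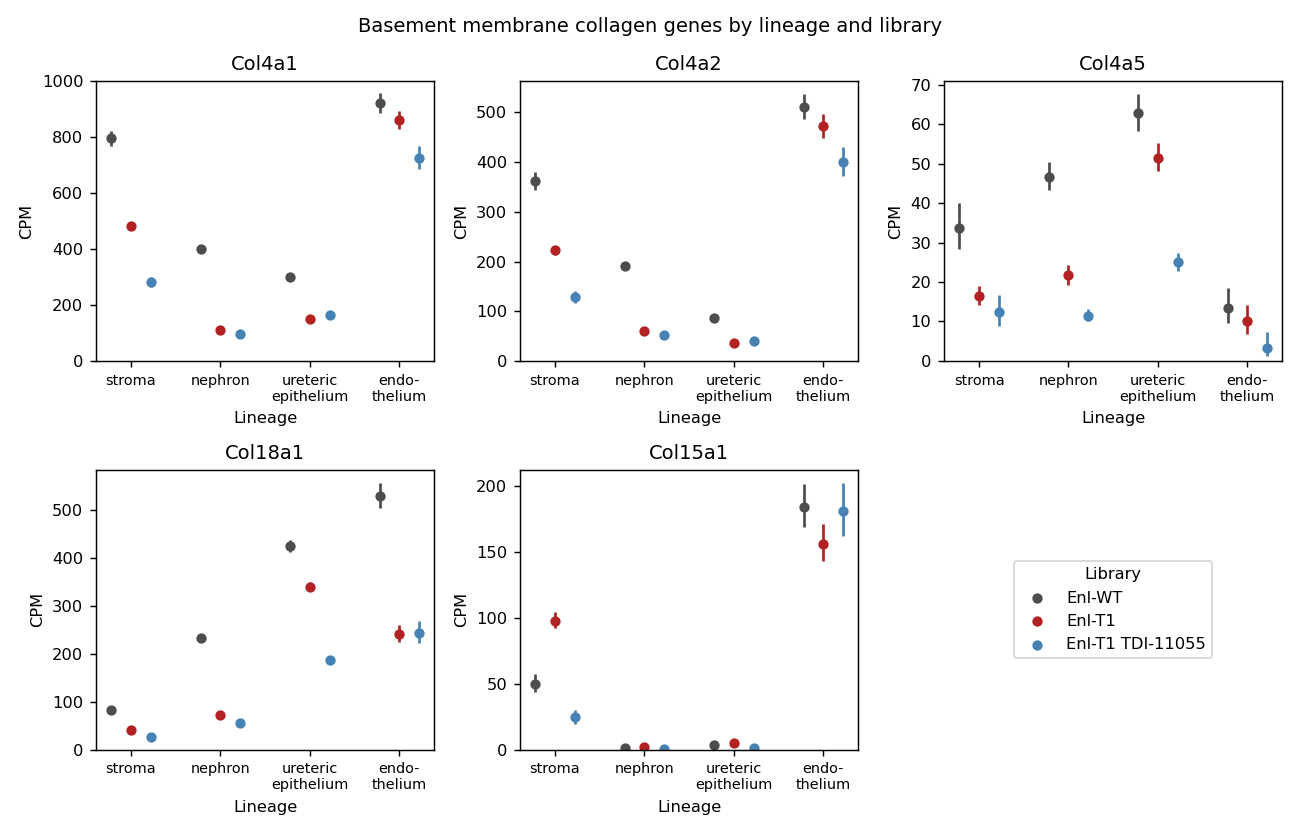
CPM (y axis, from 0) of Col4a1, Col4a2, Col4a5, Col18a1 and Col15a1 in the 4 lineages (x axis) of each library, with 95% counting intervals. Enl-WT is highest for Col4a1 in stroma, nephron and ureteric epithelium (796, 402 and 299 CPM), while in endothelium the 3 libraries are closer (923, 861 and 727 CPM) and Col15a1 is at 184, 156 and 181 CPM.

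Chains of one collagen were compared as shares of the UMIs of a pair, which do not depend on scaling. Col4a2 made up 35.7%, 35.4% and 35.5% of Col4a1 and Col4a2 in endothelium, and 31.3%, 31.7% and 31.1% in stroma. Within these 2 lineages the share was thus close between libraries although both levels differed. In nephron it was 32.2% in Enl-WT (31.2 to 33.2), 35.5% in Enl-T1 (33.6 to 37.4) and 35.1% in TDI-11055, with no overlap of the untreated libraries. Within each named nephron class the intervals of the untreated libraries did overlap. The Enl-WT and Enl-T1 shares were 36.4% and 40.6% in progenitor-like, 29.4% and 29.3% in committed and 24.4% and 24.7% in proximal tubule-like cells. In distal tubule and loop of Henle-like cells they were 30.7% and 26.1%, and in podocyte-like cells 47.4% and 39.3%. The Col4a2 share was lower in ureteric epithelium, at 22.6%, 19.7% and 19.9%. The share of Col1a2 of Col1a1 and Col1a2 in stroma differed between libraries as well, at 50.8%, 57.4% and 54.6%. In podocyte-like cells the Col4a2 share was 47.4% in Enl-WT (44.3 to 50.4), and in proximal tubule-like cells 24.4% (22.6 to 26.4). Over 39 points, 13 classes in 3 libraries, levels of Col4a1 and Col4a2 had Pearson's r of 0.95 on the scale of log2(CPM + 1), those of Col1a1 and Col1a2 0.93, those of Col4a3 and Col4a4 0.76 and those of Col4a5 and Col4a6 0.63. The points share libraries and depth, so these are descriptions.

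**Figure D4:**
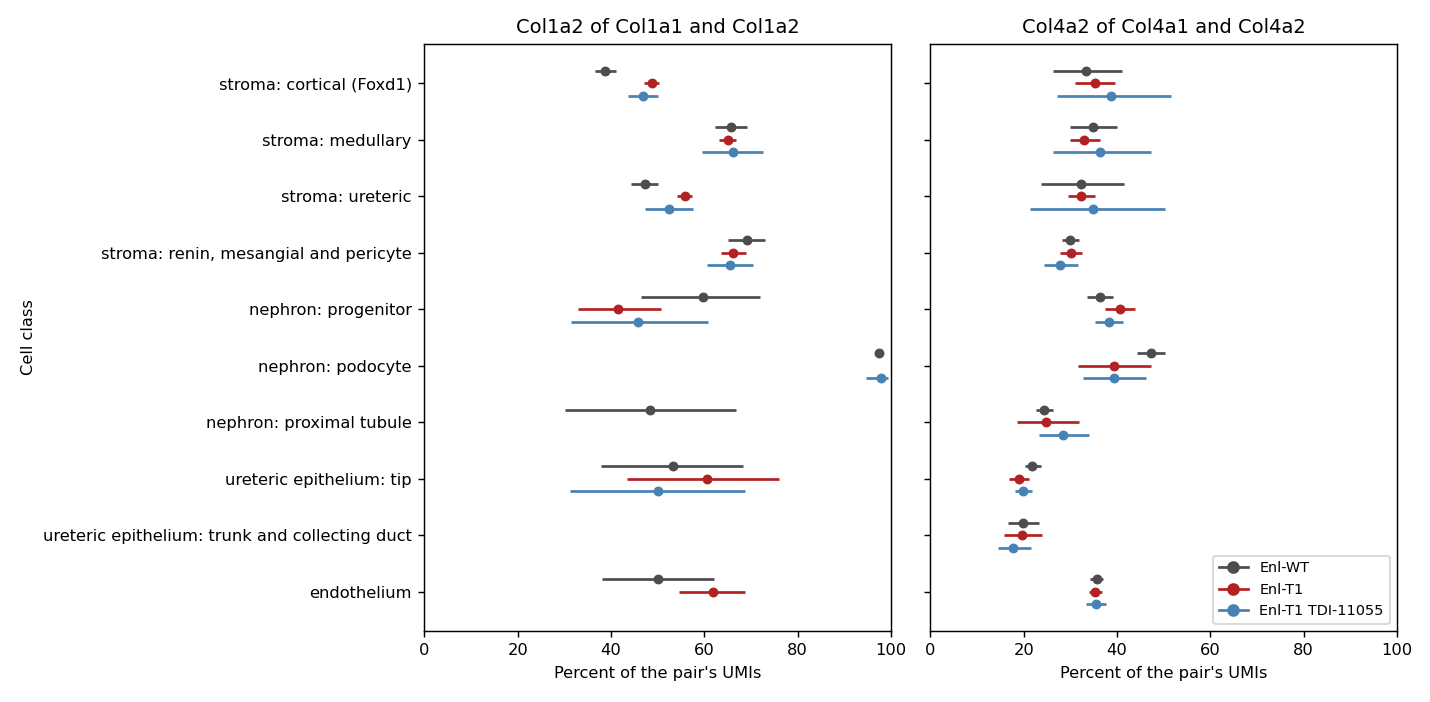
Share of UMIs from the second chain (x axis, percent, with 95% counting intervals) by cell class (y axis) and library, for Col1a2 of Col1a1 and Col1a2 (left) and Col4a2 of Col4a1 and Col4a2 (right), where a pair had at least 20 UMIs. Podocyte-like cells stand at 97.5% and 97.9% on the left, far from the 4 stroma classes, and the ureteric classes lie low on the right. Not every class is drawn. Distal tubule and loop of Henle-like cells, left out here, were at 84.6% Col1a2 in Enl-WT (26 UMIs).

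Collagen is modified, folded, trimmed, crosslinked and degraded by a set of other proteins, of which 48 genes were listed. In stroma 37 were tested. In Enl-T1 over Enl-WT, 4 were higher, against 14.3% of all genes, and 2 lower, against 12.3%, so neither count stood above all genes. The higher ones were Fkbp14, Adamts2, Lox (1.64, 1.38 to 1.96) and Timp1 (1.86, 1.47 to 2.38), and the lower ones Itga1 (0.659) and Mmp14 (0.588, 0.54 to 0.64), the membrane-bound collagenase. With TDI-11055, 5 were lower, against 13.3% of all genes, and 1 higher, against 10.1%, with a median relative log2 ratio of -0.14, against -0.93 for the collagen genes. Lox, which crosslinks collagen, was at 40.9 CPM in Enl-WT and 54.5 CPM in Enl-T1, and its ratio with TDI-11055 was 0.28 (0.208 to 0.371), and Adamts2, which trims procollagen, was at 13.3, 16.8 and 6.03 CPM (0.353). Plod2 (0.627), Timp2 (0.664) and Timp3 (0.429) were the other lower genes, and Fkbp10 was higher (1.58). The folding and hydroxylation genes as a group lay near the median gene in stroma, with 1 of 18 lower and 1 of 18 higher.

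In nephron, 32 of the 48 were tested, 7 higher and 8 lower in Enl-T1 over Enl-WT, against 31.9% of all genes past the fold either way. P3h2, a prolyl hydroxylase of type IV collagen, was at 40 and 2.93 CPM (0.0968, 0.069 to 0.133), Loxl2 at 53 and 8.57 CPM (0.214), and Itga1, an integrin subunit that binds collagen, at 117 and 13.2 CPM (0.15). P4ha1 (2.01) and Plod2 (1.59) were higher and then lower with TDI-11055 (0.533 and 0.509). With TDI-11055, 4 were higher in nephron and 2 lower, against 14.8% of all genes either way, Serpinh1, the collagen chaperone, being higher in nephron (1.56) and in ureteric epithelium (1.76).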

How the data were processed

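The deposited values were UMI counts per gene and cell, 1 matrix of counts for each of the 3 libraries, made by the authors from 3′ reads. The submitters' processing notes name Cell Ranger 6.1.2 and the mm10 genome. Depth was 37221435, 63336586 and 76619303 UMIs in the Enl-WT, the Enl-T1 and the TDI-11055 library. The members and gene lists were chosen with earlier results of these data known, and the limits for naming classes were set after the clusters had been seen.

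Barcodes with 1000 to 6000 genes and at most 10% mitochondrial UMIs were kept. Cells were clustered with Seurat 5.3.0 in R 4.3.3 (2000 variable genes, 30 components and resolution 0.5 for all cells, 20 components and resolution 0.8 within a lineage), leaving out 221 collagen, collagen pathway, mitochondrial, ribosomal protein and haemoglobin genes. Clusters were named from markers. Doublets were left in, since Scrublet marked 125, 45 and 3 barcodes; the alternative removed the 219, 137 and 61 with the highest scores. Counts were summed per class and library with numpy 2.4.6, pandas 2.3.3 and scipy 1.17.1 in Python 3.11.15, with exact Poisson intervals for CPM, exact binomial intervals for shares (Clopper-Pearson) and exact binomial splits for ratios, at 95%. Shares of cells with a UMI were taken after thinning to 2000 UMIs. Ratios, their scaling and the 1.5-fold limit are given where first used. Genes with at least 10 CPM in a lineage were named. With 1 library a group, no differential expression test was run; counting intervals do not cover differences between embryos. Gene positions and exonic lengths were of GRCm38. The script was tested on simulated counts.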

Additional observations from a re-analysis of the deposited data

Results flagged for a closer look

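The genes below were called in opposite directions in 2 lineages or 2 stroma classes under the same contrast. The share of all genes called in this way is not given, so their number is no result about collagen genes. All values are log2 ratios relative to the median gene, and with 1 library a group no difference between lineages or classes was tested.

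For Enl-T1 over Enl-WT, Col1a2 was at 1.88 in endothelium and -2.94 in nephron, where podocyte-like cells held most of its UMIs in Enl-WT. Col2a1 was at 1.73 in nephron and -1.25 in ureteric epithelium. Col11a1 was at 0.88 and -1.39 in the same lineages.

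Between stroma classes, the same contrast turned for 8 genes that were higher in renin, mesangial and pericyte-like cells and lower in ureteric stroma-like cells. Of all genes, 20.2% were higher in the former class and 24.2% lower in the latter. The values of the 8 genes in the former and the latter were 1.87 and -1.61 for Col1a1, 1.67 and -1.11 for Col1a2, 1.64 and -1.43 for Col3a1, and 0.64 and -1.37 for Col5a1. For the type VI genes they were 2.95 and -1.43 for Col6a1, 2.88 and -0.73 for Col6a2, and 0.64 and -1.16 for Col6a3, and for Col16a1 1.83 and -1.60. Col9a2 was at 2.49 in cortical and -2.05 in ureteric stroma-like cells, the former from 4 and 45 UMIs. Col14a1 was at 1.70 in renin, mesangial and pericyte-like cells and -1.30 in medullary stroma-like cells.

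For TDI-11055 over Enl-T1, Col2a1 was at 1.19 in ureteric epithelium and -1.11 in nephron, and Col11a1 at 0.99 and -1.42. Within tip-like cells of the ureteric epithelium, Col2a1 was at 0.92 and Col11a1 at 0.54, the latter not called. Both contrasts share the Enl-T1 library.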

How the results depend on the processing

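Each count and sum was recomputed with each alternative in scaling, filters, cells and clustering that applies to it, of which 2 were chosen after the data were seen (mixed clusters left out, clusters with 10 or more cells in every library at equal weight). Of 1405 such values of single genes, 1059 did not change, 335 moved and 11 turned sign; of 160 values of counts, sums and the share of cells, 116 did not change and 44 did, 5 of them turning sign. The cause of the changes below was not tested. Shares of all genes past the fold were given above for the main setting alone. The recounts below stand without such shares and without the number of genes tested. They show how a count moved with the setting, and not how collagen genes compared with all genes.

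In Enl-T1 over Enl-WT stroma, 5 genes were higher. The count was 2 without division by the median gene, 3 with totals free of technical genes, 8 centred on genes of like length, 10 with the strict cell filter, 3 in male cells, 2 at 2-fold and 0 with clusters at equal weight. The count of lower genes, 7, was 16 without a filter on low counts and 4 at 2-fold. The fibrillar sum, 0.41, was 0.11, 0.29, 0.65, 0.64 and 0.17 under the first 5 of these settings in that order, 0.45 without a filter, 0.38 without likely doublets and -0.12 at equal weight. With TDI-11055 over Enl-T1 in stroma, the 22 lower genes were 10 at 2-fold. The 1 higher gene became 2 without a filter, with the strict filter, in male cells and at equal weight. The fibrillar sum, -0.94, was -0.72 centred on length, -0.73 with the strict filter, -0.65 in male cells and -0.64 at equal weight.

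Without a filter the counts past the fold in nephron, ureteric epithelium and endothelium were 23, 17 and 22 (Enl-T1 over Enl-WT) and 23, 25 and 16 (TDI-11055 over Enl-T1). At 2-fold they were 7, 2 and 3 for the first contrast and 5 in nephron for the second. The endothelial sum of Col4a1 and Col4a2, 0.21, was -0.10 without division by the median gene, 0.10 with the other totals, 0.35 centred on length, 0.14 with the strict filter and -0.08 in male cells. With TDI-11055, -0.18 became -0.27 with the other totals and 0.03 centred on length.

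In male cells the sign turned for Col1a1 (-0.11), Col1a2 (-1.11) and Col23a1 (-0.81) in Enl-T1 over Enl-WT endothelium, and with TDI-11055 for Col5a3 (0.21) and Col8a2 (0.57) in stroma, Col5a2 (0.32) in ureteric epithelium and Col23a1 (0.57) in endothelium. At equal weight it turned for Col9a2 (-0.34) in stroma and Col1a1 (-0.08) in nephron, Enl-T1 over Enl-WT, and for Col9a1 (0.19) in stroma with TDI-11055. With the strict filter it turned for Col1a2 (-0.39) in ureteric epithelium, Enl-T1 over Enl-WT. The share of cells with a UMI of Col4a1 in stroma differed by -4.07 percentage points (-8.36 to 0.255), Enl-T1 minus Enl-WT, after thinning and by 12.5 points without it, at unequal depth. No paired analysis was possible because each group is 1 library.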
